A study of Mus musculus with 3 samples.

Results

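Neutrophil primary granule genes were described in RNA sequencing of mandibular condyles from 4-month-old mice of 3 Dspp genotypes. The 6 genes were Elane, Mpo, Prtn3, Ctsg, Ms4a3 and Cst7, all found by symbol among the 26970 genes of the deposited table. They were chosen by their FPKM in these same libraries, so their differences between any of the libraries are a description and carry no test. The libraries came from WT mice, from heterozygotes (Dspp+/-) and from homozygotes (Dspp-/-) of a global Dspp knockout on a C57BL/6 background, with 1 library per genotype. Dspp encodes a matrix protein best known from dentin, and every cell of the mutant mice carried the deletion, marrow cells included. Condyles were dissected with the interface of cartilage and subchondral bone kept, tissue of 3 animals was pooled for WT and for Dspp+/-, and the number of animals behind Dspp-/- is not given in the sources used here. The sample text mentions triplicates, while the table has 1 value per gene and genotype, so no replicate error could be given. Dspp was not analysed here, so no library's genotype was checked by it.

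Neutrophils are made in bone marrow, and their granules are filled in sequence as the cells mature. The primary or azurophil granules are made first, in promyelocytes, and transcription of their genes falls as the cell moves on to make secondary and then tertiary granules. Circulating neutrophils therefore carry elastase, myeloperoxidase, proteinase 3 and cathepsin G as protein while holding little of the messenger RNA. Elane, Prtn3 and Ctsg encode serine proteases, Mpo encodes the peroxidase that makes hypochlorous acid, Ms4a3 encodes a membrane protein of granulocyte and monocyte progenitors, and Cst7 encodes cystatin F, an inhibitor of cathepsins that is also made by natural killer cells and other leukocytes. The marrow factors PU.1, MYB, C/EBP and RUNX are known for their part in turning on promyelocyte genes.

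The promoter windows of the 4 most abundant members are shown as a description of their sequence. All 6 members had a window of 300 bases in the RefSeq table of GRCm38.p6, with 250 bases before and 50 after the RefSeq start, written on the strand of the gene. Capitals mark every match to the PU.1 letters GAGGAA and to the MYB letters CAACNG, where N is any base, on either strand. The windows are chr10:79886062-79886361 on the plus strand for Elane, chr11:87793534-87793833 on the plus strand for Mpo, chr10:79879417-79879716 on the plus strand for Prtn3 and chr14:56102525-56102824 on the minus strand for Ctsg.
Elane: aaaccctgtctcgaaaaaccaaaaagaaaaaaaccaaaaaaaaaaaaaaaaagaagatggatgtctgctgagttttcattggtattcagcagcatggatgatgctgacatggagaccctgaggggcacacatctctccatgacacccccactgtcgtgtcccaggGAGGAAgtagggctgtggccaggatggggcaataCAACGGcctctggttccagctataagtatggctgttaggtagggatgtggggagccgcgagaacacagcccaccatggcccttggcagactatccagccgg
Prtn3: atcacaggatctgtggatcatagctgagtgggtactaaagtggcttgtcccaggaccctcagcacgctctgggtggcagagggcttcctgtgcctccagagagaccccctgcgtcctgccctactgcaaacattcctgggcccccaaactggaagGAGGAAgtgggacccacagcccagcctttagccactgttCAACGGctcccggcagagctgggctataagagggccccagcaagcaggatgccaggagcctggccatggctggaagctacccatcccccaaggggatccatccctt
Ctsg: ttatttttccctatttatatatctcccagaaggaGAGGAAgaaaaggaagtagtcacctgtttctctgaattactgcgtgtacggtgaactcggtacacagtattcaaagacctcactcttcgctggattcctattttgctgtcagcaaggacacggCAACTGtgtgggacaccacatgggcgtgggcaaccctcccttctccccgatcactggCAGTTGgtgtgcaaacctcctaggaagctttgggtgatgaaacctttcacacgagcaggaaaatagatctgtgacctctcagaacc
Mpo: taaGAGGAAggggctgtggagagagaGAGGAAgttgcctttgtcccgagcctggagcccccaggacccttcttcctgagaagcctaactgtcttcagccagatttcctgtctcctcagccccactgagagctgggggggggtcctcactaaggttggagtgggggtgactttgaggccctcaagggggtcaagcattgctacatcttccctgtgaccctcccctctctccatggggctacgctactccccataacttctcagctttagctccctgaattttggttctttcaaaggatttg

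The neighbouring genes Elane and Prtn3 had the same arrangement, with GAGGAA upstream of CAACGG. In Elane these began at -85 and -51 from the RefSeq start, and in Prtn3 at -95 and -56. The Ctsg window held GAGGAA at -216, CAACTG at -93 and, as the complement CAGTTG, another MYB match at -36. The Mpo window held GAGGAA at -247 and at -224 and no MYB match. Ms4a3 had GAGGAA only after its start, at 36, and Cst7 had neither. GAGGAA was present in 5 of the 6 windows and in 28.3% of the 32851 windows of the table. A MYB match was present in 3 of 6 and in 35.0% of all windows, and both together in 3 of 6 and in 9.79%. The C/EBP letters TTGCNNAA were found in Ms4a3 and Cst7, against 10.8% of all windows, and the RUNX letters TGTGGT or TGCGGT in Ctsg and Cst7, against 22.4%. No match overlapped another in the 6 windows. A match of this kind is a description of the letters, not of a bound site, and binding was not measured in these libraries.

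The values are FPKM, fragments divided by gene length and library size, a unit read from the values because the table does not name one. From them and the exon lengths of GENCODE M21, whole fragments were recovered, giving a depth of 20241579 for the WT library, 23613615 for the heterozygous and 22253156 for the homozygous one. The 6 members together held 470 fragments in the WT library, 17637 in the heterozygous and 6211 in the homozygous, which was 0.00232%, 0.0747% and 0.0279% of the libraries. Intervals are 95% and cover counting error only, Poisson for a level and Clopper-Pearson for a fold, so they say nothing of the spread between animals. Mitochondrial genes took 25.0% of the FPKM total for WT, 36.9% for Dspp+/- and 37.3% for Dspp-/-. Xist was at 2, 12084 and 10563 fragments in that order of libraries, and 4 Y-linked genes summed to 36.6, 19.0 and 25.9 FPKM. Genotype and the sexes pooled into a library cannot be told apart here. In whole tissue, fewer cells of a type and less RNA per cell cannot be told apart either.

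Among the 3 proteases, Elane (ENSMUSG00000020125), neutrophil elastase, was the most abundant member in every library. Its level was 4.77 FPKM from 95 fragments in the WT library, 175 FPKM from 4057 in the heterozygous and 78.3 FPKM from 1714 in the homozygous. Elane thus stood lowest in WT and highest in the heterozygous library, with the homozygous library between. Its FPKM was 36.6-fold that of WT in Dspp+/- (interval 29.9 to 45.4) and 16.4-fold in Dspp-/- (13.3 to 20.4). It had rank 2 of 13026 genes by log2 ratio of Dspp+/- to WT, behind 1 immunoglobulin light chain segment. Prtn3 (ENSMUSG00000057729), proteinase 3, read 2.91, 73.9 and 26.4 FPKM in WT, Dspp+/- and Dspp-/-, from 102, 3021 and 1018 fragments, and further values are given in this order. Its order of libraries was that of Elane, at 25.4-fold of WT in Dspp+/- (20.8 to 31.2) and 9.08-fold in Dspp-/- (7.40 to 11.2). Ctsg (ENSMUSG00000040314), cathepsin G, read 1.29, 38.3 and 10.7 FPKM from 27, 934 and 245 fragments. The heterozygous library was again the highest, at 29.7-fold of WT (20.2 to 45.2), and the homozygous library was at 8.25-fold (5.54 to 12.8).

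Mpo (ENSMUSG00000009350), the peroxidase, read 3.23, 109 and 38.3 FPKM. It had more fragments than any other member, 224, 8835 and 2919, because its exons sum to 3424 bases against 984 for Elane. The fold over WT was 33.8 in Dspp+/- (29.6 to 38.8) and 11.9 in Dspp-/- (10.3 to 13.6), both with the narrowest relative interval among the members. Ms4a3 (ENSMUSG00000024681), the progenitor membrane protein, read 0.472, 14.0 and 5.87 FPKM from 18, 624 and 246 fragments. It was 29.7-fold of WT in Dspp+/- (18.6 to 50.5) and 12.4-fold in Dspp-/- (7.70 to 21.3). Cst7 (ENSMUSG00000068129), the cathepsin inhibitor, read 0.200, 7.13 and 3.14 FPKM. It rested on 4 fragments in WT, against 166 and 69 in the mutant libraries, so its folds of 35.6 (13.6 to 132) and 15.7 (5.86 to 59.2) were the least precise. Ms4a3 and Cst7 were under 1 FPKM in WT and passed the minimum mean of 1 FPKM only through the mutant libraries.

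**Figure D1:**
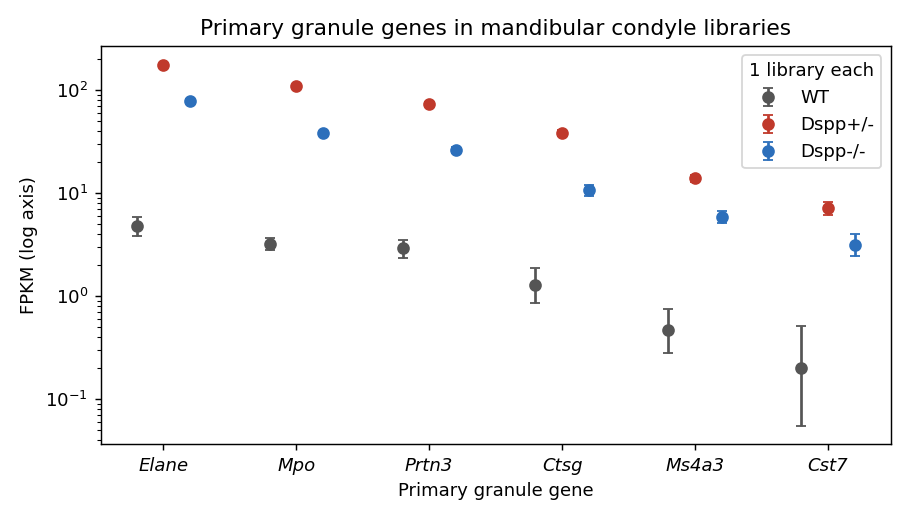
FPKM on a log axis for each of the 6 primary granule genes in the WT, Dspp+/- and Dspp-/- libraries, 1 point per library, with bars for the 95% Poisson interval of counting error. Every gene is highest in Dspp+/-, from 175 FPKM for Elane to 7.13 for Cst7, and lowest in WT, from 4.77 to 0.200.

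On the log2 scale of FPKM + 1, which understates the change of low genes, the difference of Dspp+/- from WT was 4.93 for Elane, 4.70 for Mpo, 4.26 for Prtn3, 4.10 for Ctsg, 3.35 for Ms4a3 and 2.76 for Cst7. The order on that scale was the order of abundance, while the folds themselves ran from 25.4 to 36.6 with intervals that all overlapped. All 6 members were at least 2-fold higher in Dspp+/- than in WT, where 4.88% of the 13026 genes compared were. In Dspp-/- the log2 differences from WT ran from 1.79 for Cst7 to 3.78 for Elane, all 6 members were at least 2-fold higher, and 4.05% of genes were. The 2 comparisons share the WT library, and the members were chosen on them, so nothing is read from these counts. The medians of the members were 4.18 in Dspp+/- and 2.58 in Dspp-/-, beside 0.058 and 0.007 over all genes compared. Summed over the members and scaled to depth, fragments were 32.2-fold those of WT in Dspp+/- (29.3 to 35.3) and 12.0-fold in Dspp-/- (10.9 to 13.2).

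Set directly against each other, the heterozygous library held more of every member than the homozygous library. The FPKM in Dspp+/- was 3.59-fold that in Dspp-/- for Ctsg (3.12 to 4.15), 2.85-fold for Mpo (2.74 to 2.98) and 2.80-fold for Prtn3 (2.60 to 3.01). It was 2.39-fold for Ms4a3 (2.06 to 2.78), 2.27-fold for Cst7 (1.70 to 3.05) and 2.23-fold for Elane (2.11 to 2.36). No interval reached 1. The interval of Ctsg lay above those of Mpo, Prtn3, Ms4a3, Cst7 and Elane, and that of Elane lay under those of Mpo, Prtn3 and Ctsg, so the members were not all higher by the same factor beyond counting error. On the log2 scale of FPKM + 1, 5 of 6 members were at least 2-fold higher in Dspp+/- than in Dspp-/-, where 0.798% of the genes compared were. Cst7, at 0.97, was just under that threshold. The members were chosen with the values of both mutant libraries known, so nothing is read from this count. The members' median difference of Dspp-/- from Dspp+/- was -1.30, beside -0.037 over all genes compared.

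The order of the members was the same in the 3 libraries, from Elane through Mpo, Prtn3, Ctsg and Ms4a3 to Cst7. Intervals of neighbours in that order overlapped only in WT, between Mpo and Prtn3 and between Ms4a3 and Cst7. Within the members' summed FPKM, Elane took 37.0% of the WT sum, 41.9% of the heterozygous and 48.1% of the homozygous one. Its share was highest in the homozygous library. Ctsg took 10.03%, 9.18% and 6.55%, and Prtn3 took 22.6%, 17.7% and 16.2%, both lowest in Dspp-/-. The share of Mpo was 25.1%, 26.2% and 23.6%, and those of Ms4a3 and Cst7 stayed within 3.36% to 3.67% and 1.56% to 1.93%. Among all genes of the table, Elane stood above 73.5% for WT, 99.4% for Dspp+/- and 98.6% for Dspp-/-.

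Genes made later in the neutrophil lineage were also higher in the mutant libraries, by smaller folds and without the excess in Dspp+/-. Of 14 secondary and tertiary granule genes, 12 were at least 2-fold higher than in WT in each mutant library, with median log2 differences of 1.82 in Dspp+/- and 2.03 in Dspp-/-. Ngp, a secondary granule protein, read 145, 562 and 744 FPKM, so the homozygous library was the higher of the mutants. Mmp9, the gelatinase, was the 1 gene of the list lower than in WT, at 552, 239 and 371 FPKM, and it is also made by osteoclasts. Cyba, at 27.7, 39.4 and 35.0 FPKM, was higher in both mutant libraries by less than 2-fold. Of 12 mature neutrophil genes, 12 were at least 2-fold higher in Dspp+/- and 11 in Dspp-/-, with medians of 1.95 and 2.36. Of the genes compared, 2 of the secondary and tertiary list and 4 of the mature list were under 1 FPKM in WT and entered through the mutant libraries, which bears on these counts. S100a9, a calcium-binding protein of the neutrophil cytosol, read 232, 916 and 1339 FPKM, again highest in Dspp-/-. Between the mutant libraries, the median log2 difference of Dspp-/- from Dspp+/- was 0.23 for the secondary and tertiary granule genes and 0.13 for the mature neutrophil genes, against -1.30 for the members.

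**Figure D2:**
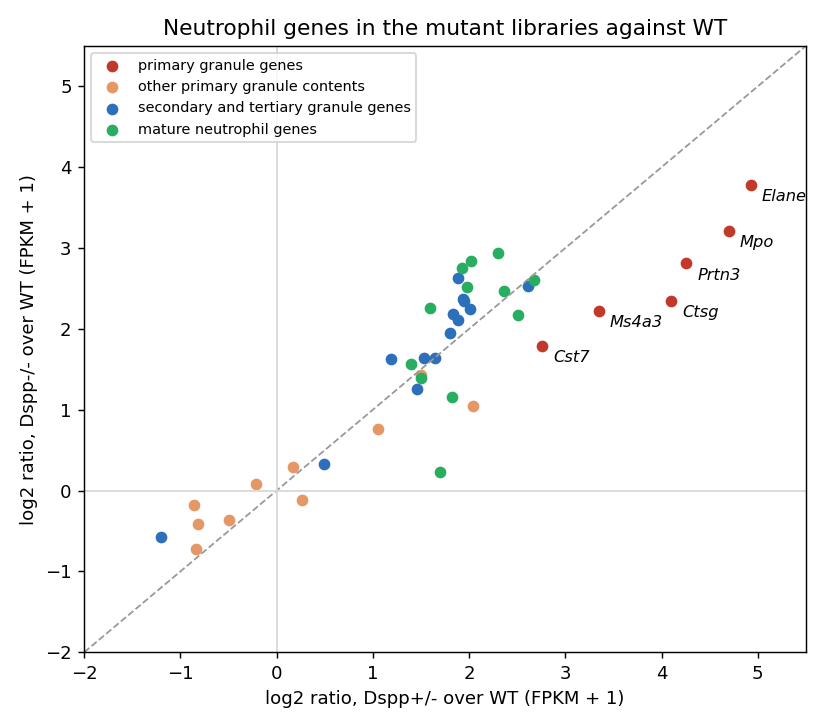
Log2 ratio of Dspp+/- to WT (x axis) against that of Dspp-/- to WT (y axis), both on FPKM + 1, for the primary granule genes and 3 other neutrophil lists, 1 point per gene. The axes share the WT library. The 6 members lie under the dashed line of equal ratios and to the right of x = 2.7, while most secondary, tertiary and mature genes lie near the line between 1 and 3.

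Ratios taken inside a library do not depend on how libraries were scaled. The summed FPKM of the members was 0.0143 of that of the secondary and tertiary granule genes for WT, 0.261 for Dspp+/- and 0.0813 for Dspp-/-. The heterozygous ratio was 18.3-fold that of WT and 3.22-fold that of Dspp-/-. Mmp9 held most of the WT denominator, and without it, an alternative added after seeing the data, the ratios were 0.0370, 0.307 and 0.0998, so that the heterozygous ratio was 8.31-fold that of WT. Over the mature neutrophil genes the members came to 0.0310, 0.243 and 0.0624. The homozygous ratio was then 2.01-fold that of WT, and 1.5-fold when Elane and S100a9, the most abundant gene of each list, were taken out. In each of these ratios Dspp+/- was the highest library and WT the lowest.

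**Figure D3:**
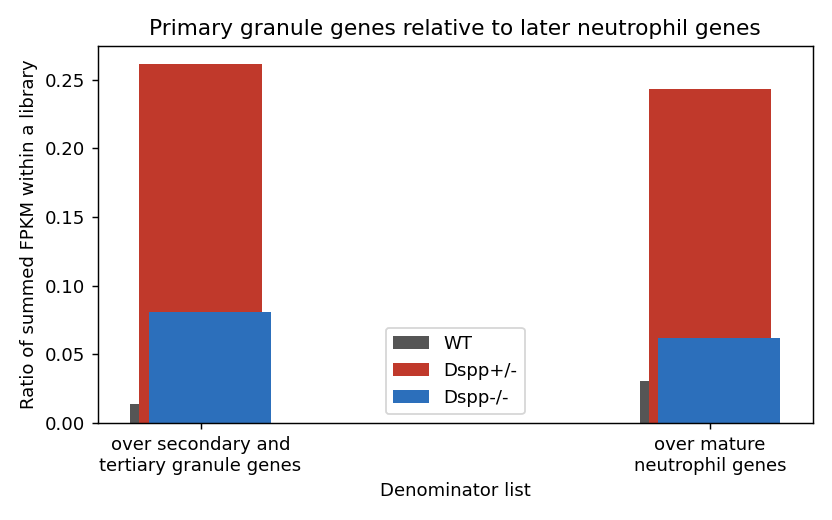
Summed FPKM of the 6 primary granule genes divided by that of the secondary and tertiary granule genes (left) and of the mature neutrophil genes (right), 1 bar per library with no replicates. The bars for Dspp+/- stand at 0.261 and 0.243, above 0.0813 and 0.0624 for Dspp-/- and 0.0143 and 0.0310 for WT. Bars of the same denominator are drawn largely over each other, so those of WT are mostly covered.

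Other contents of the primary granule did not follow the members as a list. Of 11 such genes 10 were compared, and 3 were at least 2-fold higher in Dspp+/- and 2 in Dspp-/-, with medians of -0.02 and -0.01. Prss57, a granule serine protease, read 0.156, 3.77 and 1.39 FPKM from 9, 253 and 88 fragments, which is 24.1-fold of WT in Dspp+/- (12.5 to 53.3) and 8.89-fold in Dspp-/- (4.48 to 20.1). Its pattern over the libraries was that of the members. Prss57, part of both counts, was under 1 FPKM in WT and passed the minimum mean only through the mutant libraries. Lyz2, lysozyme, which macrophages also make, read 207, 588 and 558 FPKM. Hexa and Ctsd, lysosomal hydrolases of most cells, read 178 and 176 FPKM in WT and 99.5 and 213 in Dspp+/-. Bpi, a bactericidal protein, had 6, 0 and 3 fragments, so no fold is given.

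Genes for the folding, cleavage and sorting of granule proteins had medians of 0.10 in Dspp+/- and 0.01 in Dspp-/-, with 2 and 3 of 14 at least 2-fold higher. Ctsc, whose product cleaves the granule proteases into active form, read 10.3, 10.6 and 12.8 FPKM. Its levels differed far less than those of the proteases. Unc13d and Rab27a, which act in granule release, read 0.697 and 2.33 FPKM in the WT library, 3.72 and 6.21 in the heterozygous and 2.53 and 6.001 in the homozygous. Unc13d, part of both counts, passed the minimum mean only through the mutant libraries. Of a list of protease inhibitors, not all of them inhibitors of the granule serine proteases, 7 were compared. In Dspp+/- 3 were at least 2-fold higher and 1, the cystatin relative Cstb, was lower, and 3 were higher in Dspp-/-. Stfa2l1, part of both counts of higher genes, had 1, 28 and 14 fragments and passed the minimum mean only through the mutant libraries. Serpinb1a, an intracellular inhibitor of elastase, proteinase 3 and cathepsin G, read 6.35, 24.3 and 22.0 FPKM. Slpi, a secreted elastase inhibitor, read 3.10, 16.9 and 13.02 FPKM. Both were thus higher in the mutant libraries by less than their target proteases were.

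Among 11 myeloid transcription factors, 3 were at least 2-fold higher in Dspp+/- and 2 in Dspp-/-, and the medians were 0.19 and 0.001. In Dspp+/- 7 were above WT by any amount and 4 below, and in Dspp-/- 6 were above and 5 below. Cebpd, at 29.8, 19.7 and 11.8 FPKM, was the 1 factor at least 2-fold lower, in Dspp-/-. Cebpe, needed for secondary granules, read 1.63, 10.7 and 7.68 FPKM. Myb, a factor of progenitors, read 0.990, 5.35 and 3.74 FPKM and passed the minimum mean only through the mutant libraries. Irf8, which favours monocytes, read 2.20, 6.23 and 3.90 FPKM. Spi1, which encodes PU.1, read 16.3, 17.8 and 15.7 FPKM and so was near its WT level in both mutants. Of 8 progenitor genes compared, 2 and 3 were at least 2-fold higher, with medians of 0.78 and 0.58. Plac8, a gene of myeloid progenitors and other leukocytes, read 2.79, 34.6 and 21.8 FPKM, and Fcnb, ficolin B, read 2.51, 16.6 and 11.8. Both were higher in Dspp+/- than in Dspp-/-, by smaller factors than any member.

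**Figure D4:**
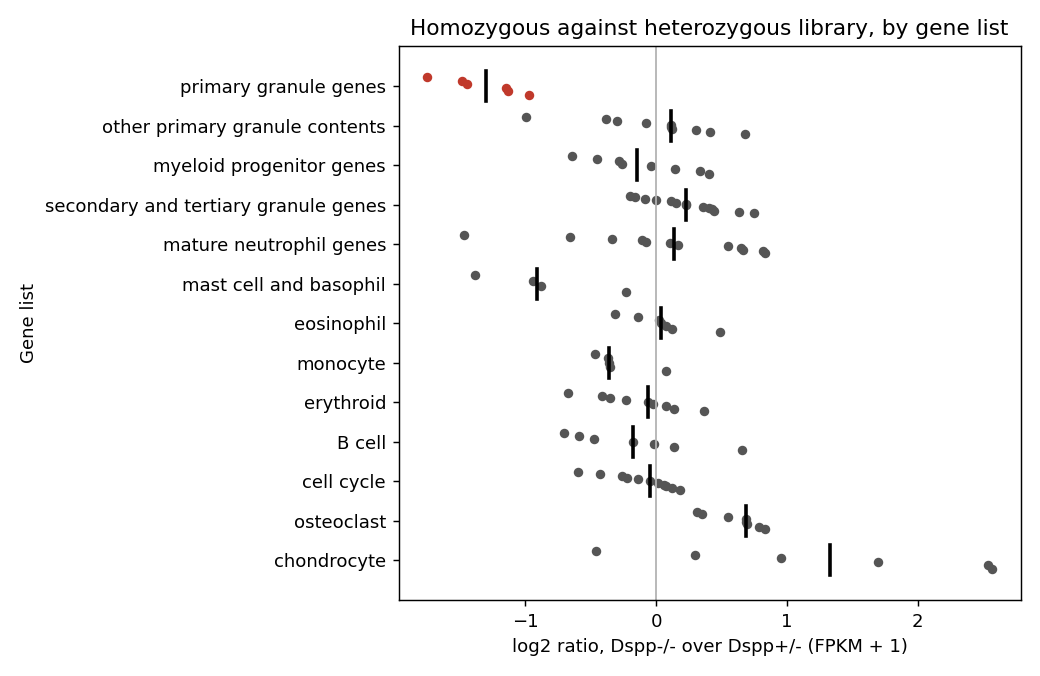
Log2 ratio of Dspp-/- to Dspp+/- on FPKM + 1, 1 point per gene with a mean of at least 1 FPKM, for the members (red) and 12 other gene lists (grey), with a black bar at each median. All 6 members lie between -1.75 and -0.97, while the medians of the secondary and tertiary granule and mature neutrophil genes are 0.23 and 0.13.

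Markers of other blood cells moved with the members to different extents, and their part in the members' levels was not tested. Of 11 mast cell and basophil genes 4 were compared, and the list summed to 3.15, 36.9 and 18.4 FPKM. Mcpt8 and Prss34, proteases of basophils, had 0 and 15 fragments in the WT library, 197 and 445 in the heterozygous and 86 and 144 in the homozygous. Against a floor of 3 fragments, Mcpt8 stood at least 56.3-fold higher in the heterozygous library and at least 26.1-fold higher in the homozygous one. All 4 genes compared were under 1 FPKM in WT and passed the minimum mean only through the mutant libraries. Of the mast cell genes, Cpa3 had 9, 114 and 43 fragments, Mcpt4 had 6, 24 and 40 and Cma1 had 16, 31 and 16. Tpsb2 had 16, 18 and 19 fragments, while Tpsab1 and Mrgprb2 had at most 3 in any library. Hdc, which makes histamine in both cell types, had 53, 633 and 487. The eosinophil list summed to 8.002, 179 and 166 FPKM, and 6 of 7 genes compared were at least 2-fold higher in each mutant library, 4 of the 7 having passed the minimum mean only through those libraries. Its median log2 difference of Dspp-/- from Dspp+/- was 0.04, with 5 genes above 0 and 2 below. As a list, eosinophil genes thus did not show the excess in Dspp+/- that the members did. The same median was -0.91 for the 4 mast cell and basophil genes compared, all 4 lower in Dspp-/-. An excess in Dspp+/- was therefore not particular to the members.

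Cst7 is shared with natural killer and cytotoxic T cells, and their list of 9 genes summed to 2.11, 17.0 and 8.50 FPKM. Nkg7, a granule membrane protein, read 0.432, 13.1 and 5.46 FPKM, which was most of the sum in the mutant libraries but not in WT. Of the list, only Nkg7 had a mean that reached 1 FPKM, and it did so through the mutant libraries. The other 8 genes summed to 1.68, 3.91 and 3.04 FPKM, with none above 1.44 FPKM in any library. Prf1, perforin, had 7, 27 and 7 fragments, against 4, 166 and 69 for Cst7. The erythroid list summed to 904, 3762 and 3641 FPKM with all 9 genes at least 2-fold higher in each mutant, 3 of them under 1 FPKM in WT, and 5 of 7 B cell genes were as well. The monocyte list had medians of 1.28 and 0.91, the T cell list 0.24 and 0.05 and the macrophage list 0.13 and -0.18. Cell cycle genes had medians of 1.34 and 1.17, with 8 and 7 of 11 at least 2-fold higher.

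Genes of the skeletal tissue were lower where the members were high. The chondrocyte list summed to 1579, 449 and 697 FPKM, with medians of -2.50 and -1.03. The osteoblast list summed to 9958, 2641 and 5219 FPKM and the osteoclast list to 1731, 583 and 968. In each of these sums Dspp+/- was the lowest library, WT the highest and Dspp-/- between them, which is the reverse of the order of the members. Whether the amount of marrow in the dissected tissue differed between libraries was not tested. As sums, markers of cartilage and bone were abundant in all 3 libraries, as the tissue label requires. Single markers were not all so, as Col9a1 read 14.9, 0.443 and 7.39 FPKM and Matn1 had 2, 0 and 3 fragments.

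The members lie on 5 chromosomes in the deposited table, whose positions are of a build other than GRCm38 that the sources used here do not name for mouse. Elane (79722081 to 79724049) and Prtn3 (79710310 to 79719008) are next to each other on the plus strand of chromosome 10, with 3073 bases between them. Mpo is at 87684407 to 87695239 on the plus strand of chromosome 11, and Ctsg at 56337338 to 56340031 on the minus strand of chromosome 14. Ms4a3 is at 11606860 to 11618215 on the minus strand of chromosome 19, and Cst7 at 150412335 to 150420864 on the plus strand of chromosome 2. Within 5 genes on either side of a member there were 50 other genes, of which 20 were compared. Mcpt8, next to Ctsg, and Epx, near Mpo, were the 2 at least 2-fold higher in Dspp+/-, and these and Cfd were the 3 in Dspp-/-. Cfd, the complement protease adipsin of fat cells, began 2638 bases past Elane and read 23.5, 8.50 and 62.0 FPKM. Cfd was thus lowest in the library where Elane was highest, and highest in Dspp-/-.

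**Figure D5:**
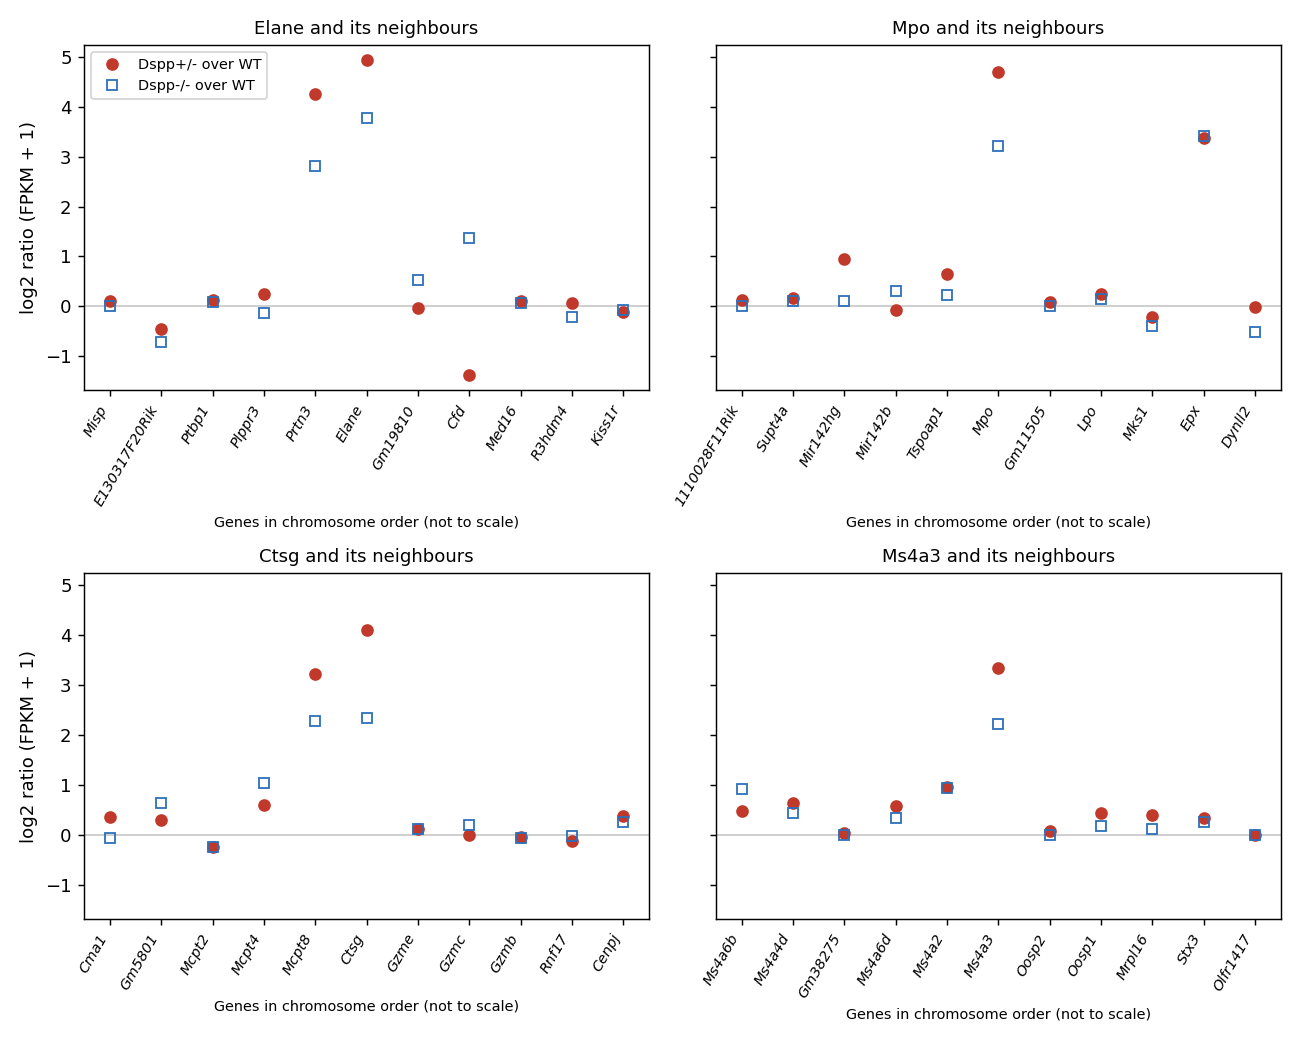
Log2 ratios to WT on FPKM + 1 for Elane, Mpo, Ctsg and Ms4a3 and the 5 table genes on either side, in chromosome order and not to scale, with red circles for Dspp+/- and blue squares for Dspp-/-. The members, Prtn3, Mcpt8 and Epx stand above 2, most other genes lie between -1 and 1, and Cfd is at -1.37 in Dspp+/- and 1.36 in Dspp-/-. Genes with a mean under 1 FPKM are drawn too.

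Relatives of the members were not all high with them. Of 18 granule serine proteases and their kin, 7 were compared, and the 5 at least 2-fold higher in Dspp+/- were Elane, Prtn3, Ctsg, Prss57 and Mcpt8. The first 3 are members chosen on these values, and Prss57 and Mcpt8 were under 1 FPKM in WT and were compared only because of the mutant libraries, so nothing is read from this count. Gzmm, a granzyme of lymphocytes, read 1.44, 2.56 and 1.25 FPKM. Of the peroxidases, Epx, which eosinophils use in the way neutrophils use Mpo, read 0.614, 15.6 and 16.1 FPKM. Epx was therefore about level between the mutant libraries, at 1.03-fold in Dspp-/- over Dspp+/- (0.942 to 1.12), where the same ratio was 0.351 for Mpo (0.336 to 0.366). Of 9 Ms4a genes compared, 4 were at least 2-fold higher in Dspp+/-, namely Ms4a3, the B cell gene Ms4a1, Ms4a4c and Ms4a6c. Ms4a3 is a member chosen on these values. Ms4a3 and Ms4a4c were under 1 FPKM in WT and were compared only because of the mutant libraries, so nothing is read from this count either. Ms4a1, Ms4a4c and Ms4a6c read 4.14, 3.14 and 6.86 FPKM in Dspp+/- over 1.01, 0.621 and 2.24 in WT. Of the cystatins, the widely expressed Cst3 read 963, 555 and 599 FPKM and so was lower in the mutants, unlike Cst7.

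The genes whose pair of log2 ratios to WT lay closest to the members' median pair, over the 3 libraries, were Igkv1-110, Ighg2b, Igkv14-111, Ly6c2, Rhd, Plac8, Nkg7, Rhag, Mcpt8 and Klf1, at distances of 0.35 to 1.01. They include immunoglobulin genes, erythroid genes and genes of several leukocytes. Igkv1-110 read 1.11, 47.6 and 11.1 FPKM, a pattern close to that of Ctsg. Exons of Elane, Ctsg, Ms4a3 and Cst7 overlapped no other gene in GENCODE M21, and none of their 100-base windows occurred in a gene outside the members. Windows shared between members were not looked for. For Mpo 15.0% of the exon length overlapped Gm11505 on the other strand, and for Prtn3 9.18% overlapped Plppr3. The labels do not state a stranded library, so reads of the overlapping stretches cannot be assigned, and 4.79% and 3.62% of the windows of Mpo and Prtn3 occurred in other genes.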

How the data were processed

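Poly(A)-selected RNA of 3 condyle libraries was sequenced in read pairs. The submitters' processing notes name FastQC 0.11.5, HISAT2 2.1.0, StringTie 1.3.3b and DESeq 1.28.0, and the human build hg38, although the genes are mouse Ensembl genes. The authors deposited 1 value per gene and genotype in a unit that is not named and was read as FPKM. FPKM times exon length (GENCODE M21) gave whole fragments within 0.1 in all 3 libraries for 26180 of 26641 genes (98.3%). Only 578 genes had the same start and end as in GRCm38. FPKM does not adjust for composition. The 13026 genes whose mean over libraries reached 1 FPKM were compared as log2 ratios with a pseudocount of 1 and a threshold of 2-fold, with a floor of 3 fragments. Without replicates the Kruskal-Wallis test of the methods could not be used, and no p-value is given. The members and lists were chosen with earlier results of these data known. Named genes were all members, the 3 most abundant genes of each list, the extremes of the neutrophil lists, paralogs, the 5 neighbours on either side and the 10 nearest patterns, and other named genes were chosen after their values were seen. Alternatives changed the pseudocount, filter, scaling, threshold and list members. A gene that the naming rule covers is not reported here. Recovery was tested on simulated data. Promoters are from RefSeq (GRCm38.p6), and no protein sequence was used here. Python 3.11.15 was used with scipy 1.17.1, pandas 2.3.3, matplotlib 3.10.9 and numpy 2.4.6.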

Additional observations from a re-analysis of the deposited data

Results flagged for a closer look

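Of 181 genes compared in the lists, families and neighbourhoods of the primary granule genes, 23 had log2 differences from WT of opposite sign in the 2 mutant libraries, and for 6 of them both lay beyond counting error. With 1 library each, the difference between the mutants was not tested. None of the 6 members was among them. Cfd, the neighbour of Elane, was at -1.37 in Dspp+/- and 1.36 in Dspp-/-. Serpina3n, a serine protease inhibitor, was at 0.68 and -0.61, and Cebpb, a myeloid transcription factor, at 0.43 and -0.29. Tnnt3, a troponin of skeletal muscle, was at 0.43 and -0.25, Ctsd, the aspartic protease cathepsin D, at 0.27 and -0.11, and G6pc3, a glucose-6-phosphatase needed by neutrophils, at 0.21 and -0.17. The median of the protease inhibitors was 0.68 and -0.14, and that of the macrophage genes was 0.13 and -0.18.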

How the results depend on the processing

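Counting error is the only error that can be given, and animals behind a library cannot be told apart from its genotype. Cst7, with 4 fragments in WT, is limited by depth. Every member kept the direction of its log2 differences over 6 alternatives of pseudocount and scaling; Cst7 over WT in Dspp+/- ranged from 1.22 to 4.59 and Elane from 4.20 to 5.16. The members' median of Dspp+/- over WT (4.18) was 4.71 with a pseudocount of 0.1 and 3.05 with 5, and that of Dspp-/- over WT (2.58) was 3.41 and 1.65. With a mean of at least 5 FPKM, which removes Cst7, the median of Dspp-/- over Dspp+/- was -1.45. Without the most abundant gene of each list, the members over secondary and tertiary granule genes came to 0.0107, 0.235 and 0.0671 (WT, Dspp+/-, Dspp-/-), and over mature neutrophil genes to 0.0442, 0.304 and 0.0665. Without Mmp9, added after seeing the data, the former were 0.0370, 0.307 and 0.0998. Genes at least 2-fold higher in Dspp+/- than in WT (636) numbered 281 with the minimum mean at 5 FPKM, 971 and 185 with pseudocounts of 0.1 and 5, and 1501 and 124 at thresholds of 1.5-fold and 4-fold. For Dspp-/- over WT (527) these were 228, 836, 136, 1152 and 103. For Dspp+/- over Dspp-/- (104) they were 52, 214, 36, 563 and 13, and 170 without a filter. Scaling without mitochondrial genes put the median of all genes at 0.155 in Dspp+/- over WT, against 0.058. Of the list medians, those of protein folding and sorting, transcription factors, other primary granule contents, protease inhibitors and skeletal muscle changed sign in at least 1 comparison under some alternative, all from main values within 0.19 of 0. No paired analysis was possible because each genotype has 1 library.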
